A study of Mus musculus with 7 samples.

Results

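Retinoic acid is made from vitamin A in short oxidation steps, acts on receptors inside cells and is broken down by enzymes. Retinol is oxidised to retinaldehyde, ALDH1A2 oxidises retinaldehyde to retinoic acid, DHRS3 turns retinaldehyde back into retinol, and CYP26 enzymes such as CYP26B1 degrade retinoic acid. CRABP1 and CRABP2 carry it in the cytoplasm, and the retinoic acid receptors RARα, RARβ and RARγ bind DNA as pairs with retinoid X receptors such as RXRα. In the embryo the pathway is known for patterning the second heart field, which supplies the outflow tract (OFT).

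The 9 genes described here, chosen by name, cover these steps: *Aldh1a2* (synthesis), *Dhrs3* (retinaldehyde reduction), *Cyp26b1* (degradation), *Crabp1* and *Crabp2* (binding), and *Rara*, *Rarb*, *Rarg* and *Rxra* (receptors). All 9 were among the 14732 genes with values. RNA-seq was performed on OFTs, the vessel leaving the embryonic heart, from mouse embryos at embryonic day (E) 11.5, with each library made from a pool of OFTs. There were 3 control (wild-type, WT) pools, numbered 3, 4 and 5, and 4 *Gata6*STOP/+ pools, numbered 1, 3, 4 and 5. *Gata6*STOP/+ embryos are heterozygous for a CRISPR-Cas9 edit that truncates the *Gata6* reading frame early, carry it in all tissues, and come from a single founder backcrossed to C57BL/6. The study's methods give the same number of pools for each genotype, whereas the labels give 3 and 4, and all 7 were used. Nothing states whether embryos in different pools shared litters, so *P*-values here measure only the spread between these pools.

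Values are CPM, the reads of a gene scaled to a common library size. Control libraries held 17783655 to 29035529 reads over all genes with values, and *Gata6*STOP/+ libraries 24736761 to 34467710. *Gata6* itself averaged 286 ± 28.9 CPM (SD, n = 3) in control and 227 ± 28.7 (n = 4) in *Gata6*STOP/+ pools, a log2 fold change of -0.34 with an adjusted *P* of 0.389 in limma, and the groups overlapped because *Gata6*STOP/+ pool 1 stood at 268 CPM. The study itself reports *Gata6* as lower, both by its own edgeR test and by quantitative real-time PCR. Markers of OFT cell types were present: the 10 cardiomyocyte genes summed to between 17757 and 25118 CPM in each pool, the 10 cushion mesenchyme genes to between 4212 and 5623 CPM, and the 10 epicardial and mesothelial genes to between 421 and 583 CPM. Of 10 pharyngeal and foregut epithelium genes, 2 were analysed here. The summed level of each of the 12 marker lists overlapped between the genotypes.

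The pools also differed in their mix of sexes. The summed level of 4 Y-linked genes (*Ddx3y*, *Eif2s3y*, *Kdm5d* and *Uty*) was 93.4, 39.9 and 71.8 CPM in control pools 3, 4 and 5, and 158, 70.4, 174 and 140 CPM in *Gata6*STOP/+ pools 1, 3, 4 and 5. *Xist*, the RNA that silences an X chromosome in female cells, ran the other way, from 362 to 662 CPM in control pools and at 157, 539, 1.30 and 197 CPM in the *Gata6*STOP/+ pools. So 3 of the 4 *Gata6*STOP/+ pools held more Y-linked RNA than any control pool, and *Gata6*STOP/+ pool 3 lay within the control range. This imbalance is set beside the results below.

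Short stretches of reference sequence show what stands before annotated starts of the genes whose pools were apart between genotypes. They were taken from RefSeq windows of GRCm38.p6 that reach from 250 bases before to 50 bases after an annotated start. Of the 9 genes, 8 have such a window, 15 windows in all, and *Crabp2* was not matched. The *Cyp26b1* stretch ends 103 bases before the start and shows the letters TATAAA in capitals, the *Rarb* stretch shows in capitals a direct repeat of receptor hexamers with 5 bases between them, the arrangement known as a retinoic acid response element, and the *Rarg* stretch shows in capitals the letters AGATAA, a form of the sequence that GATA factors bind.
Cyp26b1: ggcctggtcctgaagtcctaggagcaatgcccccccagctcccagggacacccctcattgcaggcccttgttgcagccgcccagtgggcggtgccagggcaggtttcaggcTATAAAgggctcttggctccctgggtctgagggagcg
Rarb: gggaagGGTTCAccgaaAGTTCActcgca
Rarg: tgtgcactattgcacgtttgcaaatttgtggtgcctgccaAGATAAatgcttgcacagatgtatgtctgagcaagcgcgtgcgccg

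The *Cyp26b1* stretch is chr6:84593913-84594060, that of *Rarb* chr14:16575507-16575535 and that of *Rarg* chr15:102246601-102246686, each read on the minus strand, on which the gene lies. The *Rarb* start used lies inside the annotated span of the gene, not at its outer end, and the *Rarb* stretch overlaps an annotated exon. On both strands, the GATA letters, spelled AGATAA or else AGATAG or else TGATAA or else TGATAG, stood in 29.8% of the 32851 mouse windows and in 1 of the 15 windows of these genes, a second start of *Rarg*, from 146 to 141 bases before it. A direct repeat of hexamers, each of them AGGTCA or else GGGTCA or else AGTTCA or else GGTTCA, with 5 bases between stood in 0.0974% of windows and, among these genes, in the *Rarb* window, from 53 to 37 bases before the start. The letters TATAAA stood in 13.6% of windows and, among these genes, in that of *Cyp26b1*, from 139 to 134 bases before the start. A single receptor hexamer stood in 43.7% of all windows and in 5 of the 15 windows of these genes. None of the GATA letters or receptor hexamers stood in the *Cyp26b1*, *Aldh1a2*, *Dhrs3* or *Crabp1* windows, which says nothing about sequence outside them.

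None of the 9 genes passed the test between genotypes, and neither did any other gene: 0 of 14732 had an adjusted *P* under 0.05 in limma (0%), while 1187 (8.06%) had an unadjusted *P* under 0.05. Of the 9 genes, 4 had an unadjusted *P* under 0.05, and the same 4 had pools that did not overlap between genotypes: *Cyp26b1* and *Crabp2* with every *Gata6*STOP/+ pool higher, and *Rarb* and *Rarg* with every *Gata6*STOP/+ pool lower. Over all genes, 8.47% had groups that did not overlap, 4.31% with *Gata6*STOP/+ higher and 4.16% lower. The median log2 fold change was -0.06 over the 9 genes and -0.00 over all genes. The count of 0 is that of limma, whereas edgeR's likelihood ratio test called 105 genes and DESeq2 88. The study, with its own edgeR model, reports differentially expressed genes between these genotypes. In bulk tissue, fewer cells that express a gene and less RNA per cell cannot be told apart.

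**Figure D1:**
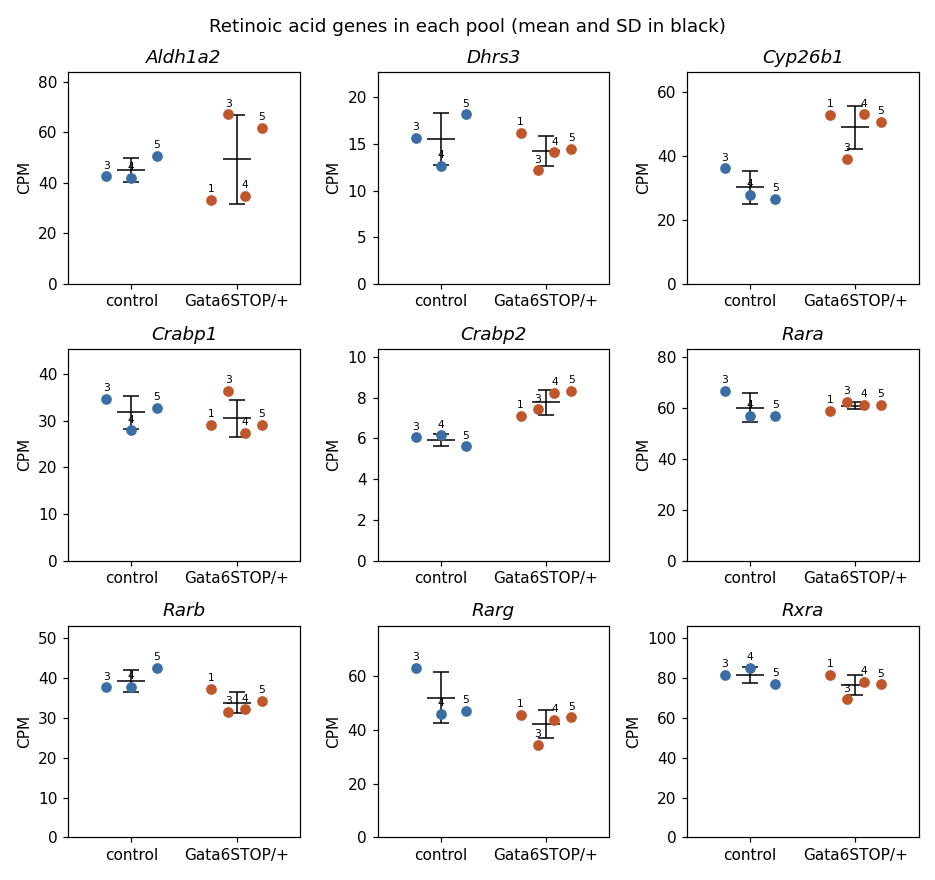
CPM (y axes, from 0) of each gene in the 3 control pools (blue) and 4 Gata6STOP/+ pools (orange), numbered by replicate, with the mean and SD in black. Cyp26b1 and Crabp2 lie higher in every Gata6STOP/+ pool and Rarb and Rarg lower, the last 2 by less than 0.3 CPM between the nearest pools, while Aldh1a2 splits the Gata6STOP/+ pools into a high and a low pair.

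Synthesis was represented by *Aldh1a2*, the main retinoic acid-making enzyme of the early embryo, on chromosome 9 from 71215789 to 71296243. It measured 42.5, 42.1 and 50.7 CPM in control pools 3, 4 and 5, and 33.3, 67.1, 34.9 and 61.8 CPM in *Gata6*STOP/+ pools 1, 3, 4 and 5. The *Gata6*STOP/+ pools thus lay on both sides of the controls, 2 above and 2 below all of them, and varied among themselves by 2.01-fold, against 1.21-fold among the controls. The log2 fold change was 0.06 (95% confidence interval -0.43 to 0.56, adjusted *P* = 0.963 in limma), an interval that covers falls and rises of this size, and its sign turned without *Gata6*STOP/+ pool 3 (-0.11) or pool 5 (-0.07). With the Y-linked level as a covariate, a fit chosen after the values were seen, it was 0.43 (95% confidence interval -0.16 to 1.03, adjusted *P* = 0.662 in limma). Between 859 and 2124 reads per pool stood behind these values.

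The *Aldh1a2* level moved with epicardial markers. In 9 of the 10 epicardial and mesothelial genes, *Gata6*STOP/+ pools 3 and 5 lay above pools 1 and 4, as for *Aldh1a2*, and the summed level of the list was 574 and 583 CPM in pools 3 and 5 against 465 and 421 CPM in pools 1 and 4. *Wt1*, an epicardial transcription factor, had a Pearson r of 0.968 with *Aldh1a2* over the 7 pools on the log2 scale, and over the 10 markers r ran from 0.412 to 0.968. Other lists also moved with or against *Aldh1a2*. For summed levels r was 0.923 for the epicardial list, 0.575 for red cells, -0.642 for endocardium and endothelium and -0.747 for the second heart field. These pools share the dissection and the tissue, so r is a description. Per 100 CPM of the epicardial sum, *Aldh1a2* was 8.86 ± 0.147 CPM (SD, n = 3) in control and 9.44 ± 2.08 (n = 4) in *Gata6*STOP/+ pools, so the split remained after scaling, from 7.16 in pool 1 to 11.7 in pool 3. Among 11626 other genes that averaged 5 CPM or more, those most like *Aldh1a2* across pools were *Ap3s2* (r = 0.987), *Dcn* (0.985), which encodes the matrix proteoglycan decorin, and *Apela* (0.979), which encodes a ligand of the apelin receptor. The part of epicardial content in the *Aldh1a2* values was not tested.

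**Figure D2:**
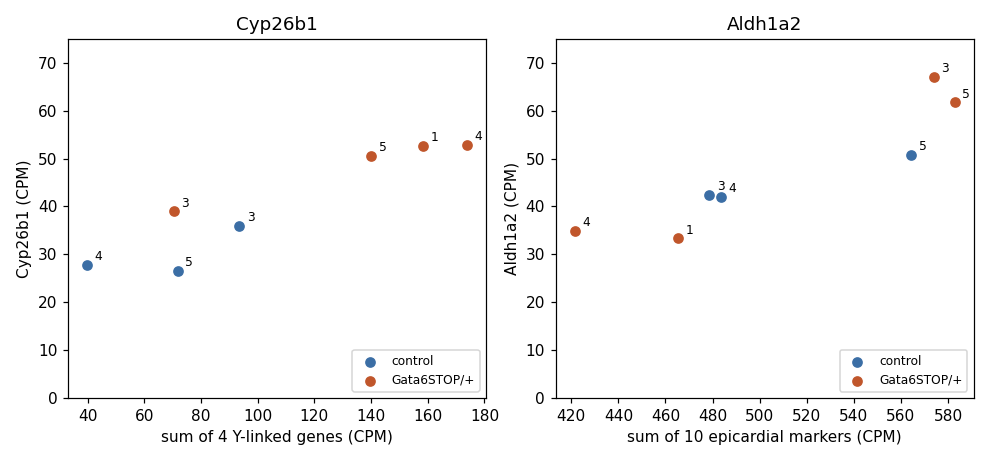
Left, Cyp26b1 (CPM) against the summed level of 4 Y-linked genes (CPM), and right, Aldh1a2 (CPM) against the summed level of 10 epicardial markers (CPM), with 1 point per pool, control in blue and Gata6STOP/+ in orange, numbered by replicate. The 3 pools with the most Y-linked RNA, all Gata6STOP/+, have the highest Cyp26b1, and the 3 pools with the highest epicardial sums, 1 control and 2 Gata6STOP/+, have the highest Aldh1a2.

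*Dhrs3*, the reductase that returns retinaldehyde to retinol (chromosome 4 from 144892827 to 144928209), measured 15.7, 12.6 and 18.2 CPM in control pools 3, 4 and 5 and 16.2, 12.2, 14.1 and 14.5 CPM in *Gata6*STOP/+ pools 1, 3, 4 and 5. The groups overlapped, with a log2 fold change of -0.11 (95% confidence interval -0.40 to 0.18, adjusted *P* = 0.866 in limma). Without control pool 5 it was 0.01, and with the Y-linked level as a covariate it was -0.37 (95% confidence interval -0.69 to -0.05, adjusted *P* = 0.490 in limma).

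The largest difference among the 9 genes was in *Cyp26b1*, which degrades retinoic acid (chromosome 6 from 84571414 to 84593908, minus strand). It measured 36.0, 27.8 and 26.6 CPM in control pools 3, 4 and 5, and 52.7, 39.0, 52.9 and 50.6 CPM in *Gata6*STOP/+ pools 1, 3, 4 and 5. Every *Gata6*STOP/+ pool lay above every control, and the nearest pools, *Gata6*STOP/+ 3 and control 3, were 2.97 CPM apart. The means were 30.2 ± 5.11 (SD, n = 3) and 48.8 ± 6.64 CPM (n = 4), a 1.61-fold difference (95% confidence interval 1.33 to 1.96). Between 475 and 1741 reads per pool stood behind it. With an unadjusted *P* of 0.00023, *Cyp26b1* ranked 17 among 14732 genes, and its adjusted *P* was 0.186 in limma, so it did not pass.

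The *Cyp26b1* call depended on the test. EdgeR's likelihood ratio test on reads recovered from the CPM values gave an adjusted *P* of 0.000641 and DESeq2 0.000273, in fits that called 0.713% and 0.597% of all genes, and edgeR's quasi-likelihood test called no gene. On simulated reads, the likelihood ratio test and DESeq2 called a larger share of unchanged genes among their calls than limma or the quasi-likelihood test did, and each of these exceeded the nominal share in the draw that was made. A single draw, with only well-covered genes changed and no sex mix between pools, cannot settle which test is right for *Cyp26b1*.

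*Cyp26b1* also moved with the sex mix of the pools. The *Gata6*STOP/+ pools at 50.6 to 52.9 CPM were those with 140 to 174 CPM of Y-linked RNA, and *Gata6*STOP/+ pool 3, with 70.4 CPM of Y-linked RNA, was the lowest at 39.0 CPM. Among the controls, pool 3 had both the most Y-linked RNA and the most *Cyp26b1*. The other controls ran the other way, with 27.8 CPM of *Cyp26b1* at 39.9 CPM of Y-linked RNA in pool 4 and 26.6 at 71.8 in pool 5. Control pool 3, at 93.4 CPM of Y-linked RNA, held 36.0 CPM of *Cyp26b1*, near the 39.0 CPM of *Gata6*STOP/+ pool 3. With the Y-linked level as a covariate in limma, the log2 fold change of *Cyp26b1* went from 0.69 to 0.40 (95% confidence interval 0.13 to 0.66), with an adjusted *P* of 0.342. A single *Gata6*STOP/+ pool lay within the control range of Y-linked RNA, so sex mix and genotype can be told apart only in part. Other members also moved with the Y-linked level: within the 4 *Gata6*STOP/+ pools r was 0.996 for *Cyp26b1*, 0.956 for *Rarg* and -0.987 for *Crabp1*. Over the 7 pools, r of *Cyp26b1* with the marker sums ran from -0.525 for macrophages to 0.702 for the posterior second heart field. It was 0.580 for endocardium and endothelium. The part of cell mix in the *Cyp26b1* values was not tested. The genes most like *Cyp26b1* across the 7 pools were *Hip1* (r = 0.986), *Cnnm2* (0.975) and *Olfml2a* (0.974).

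**Figure D3:**
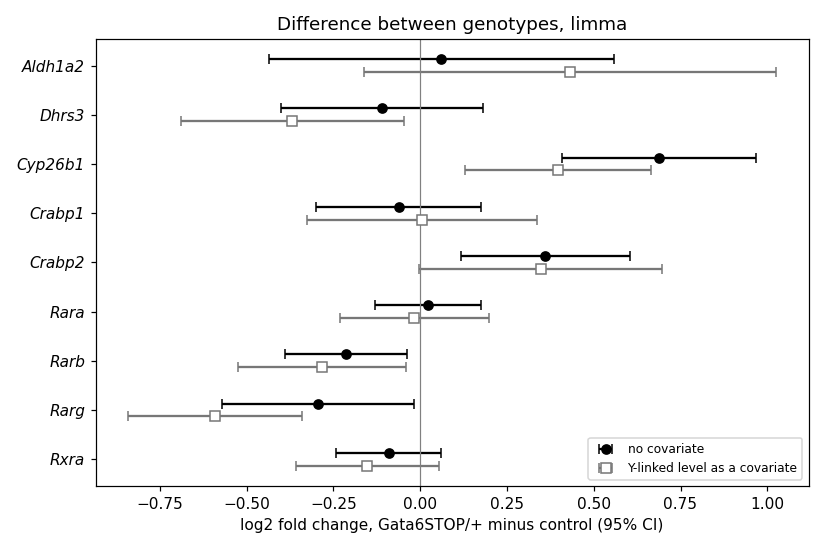
Log2 fold change (x axis, Gata6STOP/+ minus control) with 95% confidence interval for each gene, from limma without a covariate (filled circles) and with the Y-linked level as a covariate (open squares). With the covariate, Cyp26b1 goes from 0.69 to 0.40 and Rarg from -0.29 to -0.59, and neither passes the test over all genes in either fit.

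Of the binding proteins, *Crabp2*, which hands retinoic acid to nuclear receptors, was higher in every *Gata6*STOP/+ pool. *Crabp2* (chromosome 3 from 87948666 to 87953376) measured 6.04, 6.14 and 5.60 CPM in control pools 3, 4 and 5, and 7.09, 7.43, 8.22 and 8.32 CPM in *Gata6*STOP/+ pools 1, 3, 4 and 5. The groups were 0.944 CPM apart at the nearest pools, with a log2 fold change of 0.36 (95% confidence interval 0.12 to 0.60) and an adjusted *P* of 0.419 in limma. *Crabp2* rested on 100 to 286 reads per pool, the fewest of the 9 genes. With the Y-linked level as a covariate its log2 fold change was 0.35.

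*Crabp1*, a carrier marked by neural crest and mesenchymal expression in embryos (chromosome 9 from 54764748 to 54773110), measured 34.7, 27.9 and 32.7 CPM in control pools 3, 4 and 5, and 29.1, 36.3, 27.3 and 29.1 CPM in *Gata6*STOP/+ pools 1, 3, 4 and 5. The groups overlapped, and the log2 fold change was -0.06 (95% confidence interval -0.30 to 0.18, adjusted *P* = 0.912 in limma). Per kilobase of exon, *Crabp2* made up 9.41% to 11.8% of the *Crabp1* and *Crabp2* total in control pools and 11.03% to 15.4% in *Gata6*STOP/+ pools, ranges that overlap.

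Among the receptors, *Rarb* and *Rarg* lay lower in every *Gata6*STOP/+ pool, by narrow gaps, and *Rara* and *Rxra* overlapped. *Rarb*, whose gene is a textbook target of retinoic acid (chromosome 14 from 16430839 to 16819156, minus strand), measured 37.6, 37.7 and 42.5 CPM in control pools 3, 4 and 5 and 37.3, 31.6, 32.1 and 34.2 CPM in *Gata6*STOP/+ pools 1, 3, 4 and 5. The nearest pools were 0.267 CPM apart, less than the SD of either group (2.80 and 2.61 CPM). Its log2 fold change was -0.21 (95% confidence interval -0.39 to -0.04, adjusted *P* = 0.525 in limma), and -0.28 with the Y-linked covariate.

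*Rarb* shares bases with *Top2b*, a topoisomerase gene on the other strand: 1793 of the 5265 exon bases of *Rarb* (34.1%) also lie in a *Top2b* exon. The library kit keeps strand, but how strand entered the counting is not given in the sources used here. *Top2b* averaged 216 ± 26.8 CPM (SD, n = 3) in control and 231 ± 17.1 (n = 4) in *Gata6*STOP/+ pools, and the groups overlapped. Its log2 fold change was 0.10 (95% confidence interval -0.10 to 0.30, adjusted *P* = 0.816 in limma), so its direction is not settled. The part of *Top2b* reads in the *Rarb* values was not tested.

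*Rarg* (chromosome 15 from 102234938 to 102257517, minus strand) measured 63.0, 45.8 and 47.0 CPM in control pools 3, 4 and 5 and 45.6, 34.4, 43.6 and 44.6 CPM in *Gata6*STOP/+ pools 1, 3, 4 and 5. The nearest pools were 0.183 CPM apart, while control pool 3 and *Gata6*STOP/+ pool 3 stood at the ends of the range. The log2 fold change was -0.29 (95% confidence interval -0.57 to -0.02, adjusted *P* = 0.590 in limma). Without control pool 3 it was -0.15, and with the Y-linked level as a covariate it was -0.59 (adjusted *P* = 0.141).

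*Rara*, the receptor found in most tissues (chromosome 11 from 98927818 to 98974942), measured 66.7, 56.9 and 57.1 CPM in control pools 3, 4 and 5 and 59.0, 62.4, 61.3 and 61.3 CPM in *Gata6*STOP/+ pools 1, 3, 4 and 5. All *Gata6*STOP/+ pools fell within the control range, and the log2 fold change was 0.02 (95% confidence interval -0.13 to 0.17, adjusted *P* = 0.958 in limma). *Rxra*, the partner of these receptors (chromosome 2 from 27676440 to 27762957), measured 81.8, 85.1 and 77.1 CPM in control pools 3, 4 and 5 and 81.6, 69.3, 78.1 and 76.8 CPM in *Gata6*STOP/+ pools 1, 3, 4 and 5. The groups overlapped, with a log2 fold change of -0.09 (95% confidence interval -0.24 to 0.06, adjusted *P* = 0.788 in limma), and -0.15 with the Y-linked covariate.

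Levels of different genes were set side by side per length, as CPM per kilobase of annotated exon (union of exons). In control pools *Crabp1* stood highest, at 39.6 ± 4.33 (SD, n = 3), and *Aldh1a2* followed at 19.9 ± 2.16. *Rxra* (14.9 ± 0.736), *Rara* (13.8 ± 1.28) and *Rarg* (12.2 ± 2.25) came next and had overlapping pools, so their order is not settled. *Rarb*, at 7.46 ± 0.532, lay below these receptors in every control pool. *Cyp26b1* (5.63 ± 0.955) and *Dhrs3* (5.30 ± 0.953) overlapped, as did *Dhrs3* and *Crabp2* (4.48 ± 0.218).

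In *Gata6*STOP/+ pools *Cyp26b1* stood at 9.12 ± 1.24 CPM per kilobase (SD, n = 4), above *Rarb* at 6.42 ± 0.495 in every pool. The order of these genes depends on the length used: per kilobase of the longest coding transcript the *Gata6*STOP/+ means were 10.86 for *Cyp26b1* and 10.88 for *Rarb*. *Rara* made up 40.6% to 42.1% of the per-kilobase total of the 3 receptors *Rara*, *Rarb* and *Rarg* in control pools and 43.2% to 50.4% in *Gata6*STOP/+ pools. That total itself ranged from 31.0 to 37.2 in control and from 28.4 to 31.3 CPM per kilobase in *Gata6*STOP/+ pools, which overlap.

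**Figure D4:**
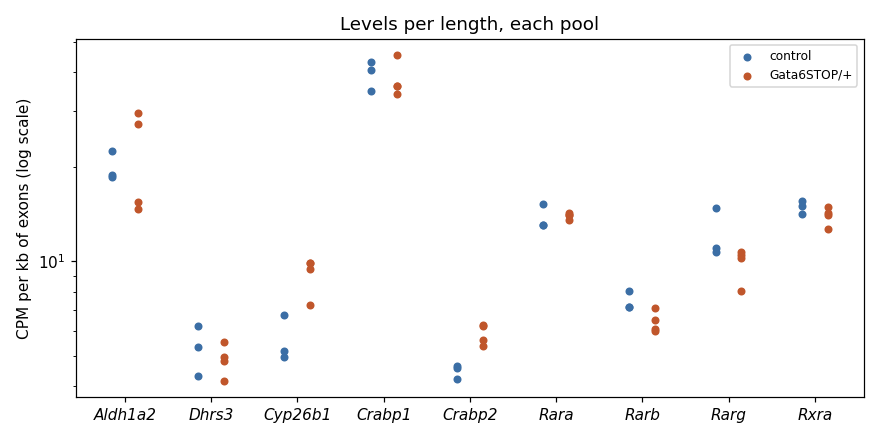
CPM per kilobase of exons (y axis, log scale) for each gene in the 3 control pools (blue) and 4 Gata6STOP/+ pools (orange). Crabp1 stands highest in every control pool, Dhrs3 and Crabp2 overlap at the low end, and Cyp26b1 shows the clearest shift between genotypes.

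Other genes of the pathway came from 3 lists. Of 33 genes for retinoid uptake, transport and metabolism, 16 had values, and 0 passed the test in either direction. Their median log2 fold change was 0.00. *Rdh10*, which makes retinaldehyde from retinol, was the gene of this list with the smallest *P*, at 6.23, 8.66 and 9.80 CPM in control pools 3, 4 and 5 and 15.2, 10.3, 11.4 and 12.0 CPM in *Gata6*STOP/+ pools 1, 3, 4 and 5. Every *Gata6*STOP/+ pool lay above every control, with a log2 fold change of 0.55 and an adjusted *P* of 0.400 in limma. *Stra6*, a receptor for retinol uptake, had a log2 fold change of 0.47 (adjusted *P* = 0.598) at a mean of 3.09 CPM, with overlapping groups. *Cyp26a1*, *Cyp26c1* and *Aldh1a3* were not analysed here.

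Of 18 other receptors and cofactors, 17 had values, 0 passed, and the median log2 fold change was 0.07. *Nr2f1*, an orphan nuclear receptor, had a log2 fold change of 0.38 with overlapping groups. The coactivator *Ncoa1* (0.14) lay higher and the corepressor subunit *Hdac3* (-0.12) lower in every *Gata6*STOP/+ pool, with adjusted *P* of 0.647 and 0.632 in limma. Of 21 genes that respond to retinoic acid, 16 had values, 0 passed, and the median log2 fold change was 0.14. *Meis1*, a homeobox transcription factor (log2 fold change 0.12), lay higher in every *Gata6*STOP/+ pool, with an adjusted *P* of 0.598 in limma. *Hoxd4* had a log2 fold change of -0.80 with overlapping groups and rested on 8 to 71 reads per pool.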

How the data were processed

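Poly(A) RNA from pools of E11.5 OFTs was sequenced from 1 end with a strand-keeping kit. Per the study's methods, Cutadapt removed adapters and RSEM counted reads on GRCm38 (Ensembl), and genes that reached 1 CPM in fewer than 3 pools were dropped. The authors deposited CPM values scaled by edgeR's TMM factors, 1 column per pool. Dividing each column by what 1 read is worth gave whole reads for all values (tolerance 0.02 of a read), which set the depths and the count-based alternatives.

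The two-sided test was limma 3.58.1 with a mean-variance trend, under R 4.3.3 and with no covariate, of log2(CPM + 0.5), with Benjamini-Hochberg adjustment over all 14732 genes and a threshold of 0.05. Fold changes on this scale understate those of low genes. Alternatives used edgeR 4.0.16 and DESeq2 1.42.0 on the recovered reads, other pseudocounts, a filter, another scaling, a replicate block and leaving out each pool. The fit with Y-linked level was chosen after seeing the data. The genes and lists were chosen with earlier results of these data known. Named genes were all 9 members, up to 8 of each pathway list with an unadjusted *P* under 0.05 or groups that did not overlap, and the 3 genes most like *Aldh1a2* and *Cyp26b1* (mean of at least 5 CPM). Of the genes this rule names, 1 is not reported here. *Gata6*, *Top2b*, *Wt1* and the Y-linked genes served as checks. Limma and the likelihood ratio test (each with and without the block), the quasi-likelihood test without it and DESeq2 were tested on 1 set of simulated reads with known changes. In each, unchanged genes made up more than the nominal share of the calls, most so in the likelihood ratio test with the block. The values had been read before this simulation was run. Positions and exon lengths are from GENCODE M21 and promoter windows from RefSeq.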

Additional observations from a re-analysis of the deposited data

Results flagged for a closer look

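Among the 4 *Gata6*STOP/+ pools, pool 3 stood apart from the others for *Cyp26b1*, at 39.0 CPM against 50.6 to 52.9 CPM in pools 1, 4 and 5. Its gap to the nearest pool was 0.835 of the range, just above Dixon's 95% critical value for 4 samples. Chance flags about 1 in 20 such groups, and 10 genes were looked at. Pool 3 was also the *Gata6*STOP/+ pool with the least Y-linked RNA (70.4 CPM), and the part of this in the value was not tested. Without *Gata6*STOP/+ pool 3 the log2 fold change of *Cyp26b1* was 0.79 (adjusted *P* = 0.0667 in limma).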

How the results depend on the processing

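In limma 0 genes were called. The count was 1 with a pseudocount of 0.1, 14 with the replicate block in limma, 13 with the block in edgeR's quasi-likelihood test, 105 with the likelihood ratio test, 118 with that test and the block, 88 with DESeq2, 6 with the Y-linked covariate (chosen after seeing the data), and 0 to 13 on leaving out a pool. *Cyp26b1*, and with it 1 of the 9 genes, was called by the likelihood ratio test (log2 fold change 0.70), by that test with the block (0.66, adjusted *P* = 0.0123) and by DESeq2 (0.70). In the 1 simulated draw these tests had the largest shares of unchanged genes among their calls, which a single draw cannot establish for these data. In the other alternatives its adjusted *P* stayed above the threshold, and on leaving out a pool its log2 fold change ran from 0.61 to 0.82 with adjusted *P* from 0.0667 to 0.549. *Gata6* was called with the likelihood ratio test and the block (-0.42, adjusted *P* = 0.0164). The study's own log2 fold change of *Gata6* is also -0.42, against -0.34 in the likelihood ratio test without the block. Limma without *Gata6*STOP/+ pool 1 gave -0.42 too, so this value does not tell pairing from an estimate without that pool. On leaving out a pool, log2 fold changes ran from -0.11 to 0.22 for *Aldh1a2*, -0.25 to 0.0090 for *Dhrs3*, -0.15 to 0.0028 for *Crabp1* and -0.016 to 0.10 for *Rara*, and with the Y-linked covariate *Crabp1* (0.0040) and *Rara* (-0.017) turned sign, while *Aldh1a2* (0.43) and *Dhrs3* (-0.37) moved beyond these ranges. *Crabp2*, *Rarb*, *Rarg* and *Rxra* kept their direction in every alternative run. Same-numbered pools did not deviate together (r = -0.05, -0.27 and -0.02 for numbers 3, 4 and 5), and the main fit did not take the numbers as pairs. These 3 values cannot show whether the pools were collected as pairs. The block leaves *Gata6*STOP/+ pool 1, which has no control of its number, without weight in the estimate. *Crabp2*, at 100 reads in its shallowest pool, has a relative counting error of about 10% there.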
